A study of Mus musculus with 12 samples.

Results

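The fatty acid desaturases Scd1, Scd2, Scd3, Fads1, Fads2, Fads3 and Fads6 were examined in epidermal scrapings of mice with and without Pparg in the epidermis. The genes were taken by symbol from the deposited table of counts, which lists 14533 genes. It holds 6 of the 7, and Fads6 is not among the genes analysed here. Bulk mRNA sequencing was done on 12 mice, 6 of each genotype, with 1 library per mouse. All mice were on the C57BL/6 background and were 8 to 13 weeks old by their labels (the ages in the study's methods and library list differ for some mice). Pparg-/-epi mice (3 breeding numbers of their own and 1 shared with WT, 4 females and 2 males) carried Pparg alleles in which exons 1 and 2 lie between loxP sites. They also carried a Cre recombinase under the keratin 14 promoter, which is active in basal keratinocytes of the epidermis and its appendages. WT mice (3 females and 3 males) were Cre-negative siblings by the study's methods, which do not state whether their Pparg alleles were floxed. Non-lesional dorsal skin was frozen and scraped down to the bed of vessels under the epidermis, so that the libraries can hold superficial dermis as well as epidermis, hair follicles and sebaceous glands.

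Desaturases put double bonds into fatty acids that are bound to coenzyme A, with electrons passed from NADH through cytochrome b5. The Scd enzymes make monounsaturated from saturated fatty acids, and Scd1 is the main skin form, known for the sebaceous gland, since asebia mice, which carry Scd1 mutations, have atrophic sebaceous glands and lose hair. The Fads enzymes act mostly on polyunsaturated fatty acids from the diet: Fads2 takes the entry step on linoleic and alpha-linolenic acid, Fads1 a later step towards arachidonic acid, and Fads3 acts on sphingoid bases. PPARγ, the product of Pparg, is a nuclear receptor that binds DNA with a retinoid X receptor and is known for its role in fat cells and sebocytes.

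Scd1 and Scd3 were lower in Pparg-/-epi mice, and the other 4 desaturases in the table did not pass the test. The 6 genes lie in 2 clusters on chromosome 19 of mm10. The Scd cluster spans 204 kb, with Scd3 (chr19:44203288-44244016), Scd2 (chr19:44293676-44306862) and Scd4 (chr19:44333326-44346743) on the plus strand and Scd1 (chr19:44394450-44407709) on the minus strand. The Fads cluster spans 155 kb, with Fads3 (chr19:10041548-10059671) and Fads1 (chr19:10182888-10196872) on the plus strand and Fads2 (chr19:10064164-10101503) on the minus strand. Scd4, the remaining mouse Scd gene, was not among the 7 and was measured beside them.

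The Scd genes are close copies, which matters for counts from which reads that map to several places had been removed. Coding sequences of Scd1 and Scd3 were 91.5% identical at aligned bases, and the longest identical run was 185 bases, at coding bases 463 to 647 of Scd1 and 475 to 659 of Scd3 (GENCODE M21 transcripts). That run is shown because a read pair that falls wholly inside it cannot be assigned to Scd1 or Scd3. The same window of the other Scd genes is given beside it, with capitals at bases that differ from Scd1.
Scd1: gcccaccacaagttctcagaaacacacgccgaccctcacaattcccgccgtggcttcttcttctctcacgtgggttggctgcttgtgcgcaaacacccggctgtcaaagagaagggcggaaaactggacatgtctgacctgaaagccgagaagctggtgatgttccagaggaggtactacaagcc
Scd3: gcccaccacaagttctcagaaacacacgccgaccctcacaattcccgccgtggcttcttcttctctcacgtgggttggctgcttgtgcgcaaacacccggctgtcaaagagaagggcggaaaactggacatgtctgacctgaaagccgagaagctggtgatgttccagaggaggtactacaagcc
Scd2: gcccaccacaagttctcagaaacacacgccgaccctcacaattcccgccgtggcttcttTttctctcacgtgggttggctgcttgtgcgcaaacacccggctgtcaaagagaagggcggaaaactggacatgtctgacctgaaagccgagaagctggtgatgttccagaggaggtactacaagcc
Scd4: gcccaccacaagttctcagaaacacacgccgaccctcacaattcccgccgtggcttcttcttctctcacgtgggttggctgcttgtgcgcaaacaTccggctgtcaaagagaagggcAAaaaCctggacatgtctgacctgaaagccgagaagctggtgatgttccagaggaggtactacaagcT
Scd2 differed from Scd1 at 1 of the 185 bases and Scd4 at 5. Over the whole transcripts, 3.24% of the 75-base stretches of Scd1, 3.25% of those of Scd3, 1.80% of those of Scd2 and 1.86% of those of Scd4 occurred in a transcript of another gene. The share was 0% for Fads1, Fads2 and Fads3, whose coding sequences were 68.4% to 72.8% identical. The one annotated gene with exons over those of a member is the microRNA gene Mir5114, with 61 bases on the same strand as Scd2.

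Promoter sequences, 250 bases before to 50 bases after the start, were at hand in RefSeq (GRCm38.p6) for Scd3, Fads2 and Fads3 and for Scd4. Scd1, Scd2, Fads1 and Fads6 are not shown. The Scd3 promoter (chr19:44203038-44203337, plus strand) belongs to a gene that fell and the Scd4 promoter (chr19:44333076-44333375, plus strand) to another Scd gene of the cluster, and those of Fads2 (chr19:10101454-10101753, minus strand) and Fads3 (chr19:10041298-10041597, plus strand) to genes that did not pass the test. All are written in the direction of transcription, with capitals at matches to the motifs searched.
Scd3: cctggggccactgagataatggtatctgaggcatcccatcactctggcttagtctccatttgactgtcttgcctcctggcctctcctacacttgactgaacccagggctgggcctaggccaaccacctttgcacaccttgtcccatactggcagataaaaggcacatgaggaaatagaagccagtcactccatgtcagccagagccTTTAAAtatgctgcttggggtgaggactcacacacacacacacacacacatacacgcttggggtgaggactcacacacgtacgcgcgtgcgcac
Scd4: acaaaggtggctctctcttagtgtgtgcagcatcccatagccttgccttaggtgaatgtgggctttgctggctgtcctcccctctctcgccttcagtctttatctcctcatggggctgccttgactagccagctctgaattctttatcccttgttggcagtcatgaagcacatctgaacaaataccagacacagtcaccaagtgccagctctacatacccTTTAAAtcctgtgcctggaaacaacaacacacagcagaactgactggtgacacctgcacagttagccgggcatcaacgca
Fads2: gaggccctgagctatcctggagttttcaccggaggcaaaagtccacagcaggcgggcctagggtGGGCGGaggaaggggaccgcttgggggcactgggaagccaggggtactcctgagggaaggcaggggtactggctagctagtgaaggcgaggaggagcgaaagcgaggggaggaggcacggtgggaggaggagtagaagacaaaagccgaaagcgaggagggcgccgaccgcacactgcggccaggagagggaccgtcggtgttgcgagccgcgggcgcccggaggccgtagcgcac
Fads3: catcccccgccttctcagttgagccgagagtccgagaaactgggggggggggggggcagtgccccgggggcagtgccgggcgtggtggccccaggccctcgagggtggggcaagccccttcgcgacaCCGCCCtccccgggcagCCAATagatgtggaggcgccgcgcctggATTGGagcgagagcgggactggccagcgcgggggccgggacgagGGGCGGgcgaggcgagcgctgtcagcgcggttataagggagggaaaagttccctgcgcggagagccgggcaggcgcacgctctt
Motifs were searched on both strands among 32851 promoters of the same length. TTTAAA, which 13.2% of promoters hold, began 44 bases before the start of Scd3 (-44) and 30 before that of Scd4 (-30). GGGCGG (35.7% of promoters) was found at 1 place in Fads2 and at 2 places in Fads3, and CCAAT (37.4%) at 2 places in Fads3. TATAAA (13.6%), AGGTCA (16.3%), the direct repeat of AGGTCA with 1 base between the copies (0.0396%), and TCACNCCAC (1.24%) were in none of the 4 windows. GC content was 54.0% in Scd3 and 50.7% in Scd4, against 67.0% in Fads2 and 73.0% in Fads3 and a median of 52.7% over all promoters.

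Total counts were 10120840 to 18851255 per mouse, and RNA integrity numbers (RIN) 5.7 to 8.6. Counts of Pparg ranged from 0.533 to 14.3 CPM (counts scaled to a common library size by the TMM method) in WT and from 1.33 to 6.49 CPM in Pparg-/-epi mice. They are summed over the whole gene, outside the floxed exons too, and so do not check the deletion. Among marker lists, WT replicate 2 had a summed keratinocyte level of 15166 CPM, below the other WT mice (lowest 29807 CPM) in the other WT mice, WT replicate 1 the highest fibroblast sum (34561 CPM) and WT replicate 5 the highest skeletal muscle sum (9820 CPM). A gene was called altered where its log2 fold change was 0.6 or more in size and its adjusted p from edgeR's quasi-likelihood test was under 0.05, and 10.3% of the 14533 genes were altered, 5.08% lower and 5.19% higher in Pparg-/-epi mice. The median log2 fold change of all genes was -0.01.

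**Figure D1:**
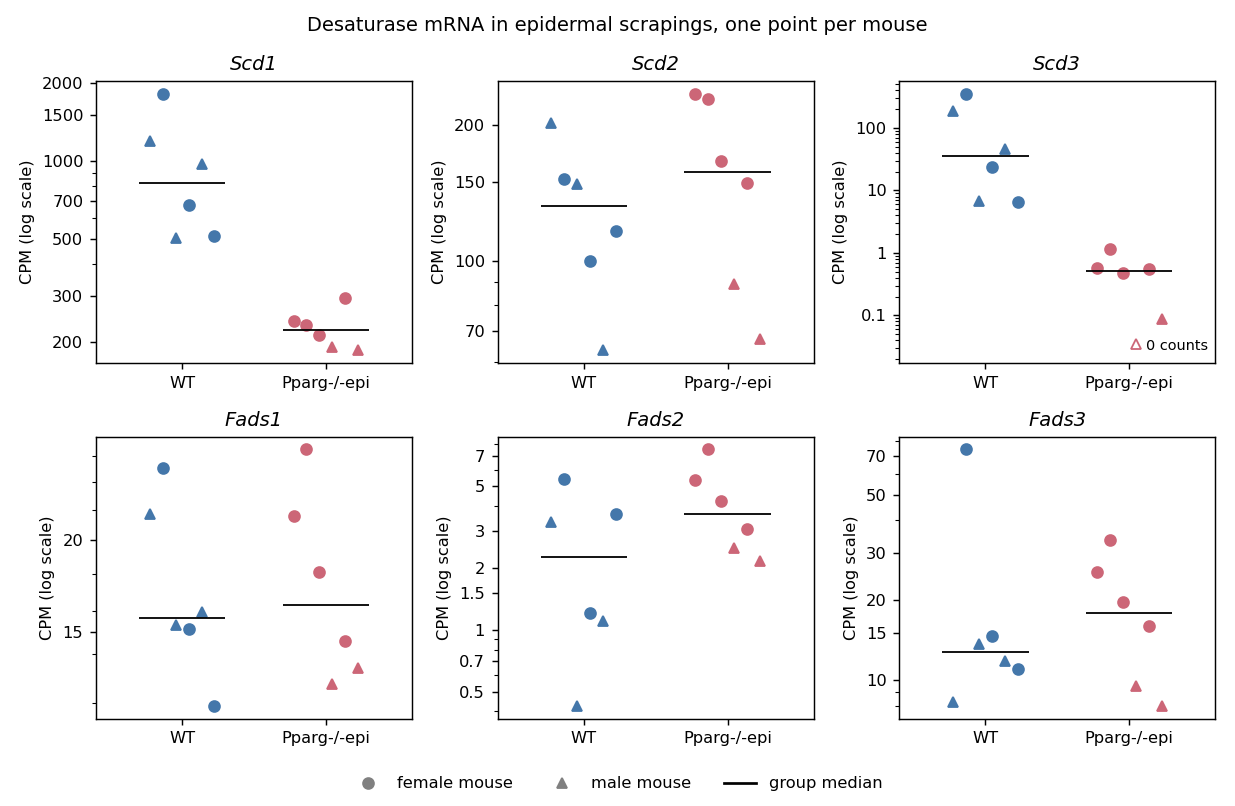
CPM of the 6 desaturases on log axes in the 12 mice, with circles for females, triangles for males and a line at the group median. An open symbol marks a library with 0 counts. Scd1 and Scd3 are lower in all 6 Pparg-/-epi mice than in any WT mouse, and the ranges of the other 4 genes overlap.

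Of the 6 desaturases, 2 were altered, both lower in Pparg-/-epi mice, against 5.08% of all genes in that direction. The same 2 were the ones whose groups did not overlap, a pattern that 3.95% of all genes showed in that direction. Fold changes are of Pparg-/-epi against WT throughout.

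Scd1 stood at 502 CPM in the lowest, 821 in the median and 1812 in the highest WT mouse, and at 186, 223 and 295 CPM in Pparg-/-epi mice. The highest Pparg-/-epi mouse, replicate 11, was below the lowest WT mouse, replicate 3. Scd1 was lower 4.18-fold, with a log2 fold change of -2.06 (SE 0.30, 95% confidence interval -2.71 to -1.41, adjusted p = 0.000985), and ranked number 90 by size among the 739 genes that were lower. WT mice varied more (944 ± 504 CPM, SD, n = 6) than Pparg-/-epi mice (226 ± 40.0 CPM, SD, n = 6).

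Scd3, which prefers palmitoyl-CoA and is known from sebaceous and related glands, was close to the limit of detection in Pparg-/-epi mice. It ran from 6.61 CPM in the lowest WT mouse over a median of 35.5 to 357 CPM in the highest, which is a spread of 54.0-fold within WT, and from 63 to 6723 counts. In Pparg-/-epi mice it ran from 0 over a median of 0.514 to 1.15 CPM, or from 0 to 19 counts. The library at 0, replicate 10, holds 12547089 counts, and 0 counts there allow a level of up to 0.250 CPM (3 counts), for counting error alone. The groups did not overlap, with a log2 fold change of -7.68 (SE 1.23, 95% confidence interval -10.34 to -5.03, adjusted p = 0.0016), the rank of 2 among the 739 lower genes. Leaving out the mouse with the most Scd3, WT replicate 2, gave -6.75 on the log2 scale (adjusted p = 0.000868). Scd3 entered the table, whose genes have more than 0.5 CPM in at least 6 mice, through its WT libraries. In a bulk library, fewer cells of a type and less mRNA per cell cannot be told apart, and this holds for all the values here.

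Scd2, the form known from brain and neonatal skin, differed by less than the spread between mice. Its levels were 63.6, 132 and 202 CPM (lowest, median and highest) in WT and 67.3, 158 and 234 CPM in Pparg-/-epi mice, and the groups overlapped over most of their range. The log2 fold change was 0.26 (95% confidence interval -0.45 to 0.96, adjusted p = 0.655). A fall as large as that of Scd1 lies outside this interval.

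Scd4, known from heart, was low throughout, at 0.32, 0.722 and 5.04 CPM in WT and 1.39, 1.74 and 1.98 CPM in Pparg-/-epi mice. The highest value came from WT replicate 2, with 95 counts, while the other WT mice had 3 to 16 counts and lay below all 6 Pparg-/-epi mice. The log2 fold change over all mice was 0.31 (adjusted p = 0.781). Without WT replicate 2 it was 1.42 (95% confidence interval 0.71 to 2.13, adjusted p = 0.00911), in a fit that altered 15.5% of all genes.

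Fads1 differed least between the genotypes. WT mice had 11.9, 15.7 and 25.05 CPM and Pparg-/-epi mice 12.7, 16.3 and 26.6 CPM (lowest, median and highest), with a log2 fold change of 0.03 (95% confidence interval -0.45 to 0.50, adjusted p = 0.956). The interval lies within 0.6 of 0 on both sides.

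Fads2 was the lowest of the Fads genes in CPM, at 0.426, 2.27 and 5.41 CPM in WT and 2.15, 3.66 and 7.52 CPM in Pparg-/-epi mice. The counted gene is 1508 bases long and its GENCODE M21 transcript 3150 bases, so that part of the transcript was left out of the counts. Of the WT mice, 3 lay below every Pparg-/-epi mouse and the other 3 within their range. The log2 fold change was 0.70 (95% confidence interval -0.42 to 1.82, adjusted p = 0.406), an interval that holds 0 as well as rises well past the threshold of 0.6.

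The direction of Fads3 depended on 1 mouse. WT replicate 2 had 74.1 CPM, while the other WT mice had 8.25 to 14.7 CPM and Pparg-/-epi mice 7.99, 17.8 and 33.8 CPM. With all mice the log2 fold change was -0.25 (95% confidence interval -1.44 to 0.94, adjusted p = 0.812), and without WT replicate 2 it was 0.65 (95% confidence interval -0.08 to 1.39, adjusted p = 0.185). In the same mouse Scd1, Scd3, Scd4, Fads1 and Fads2 were each at the highest WT level.

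**Figure D2:**
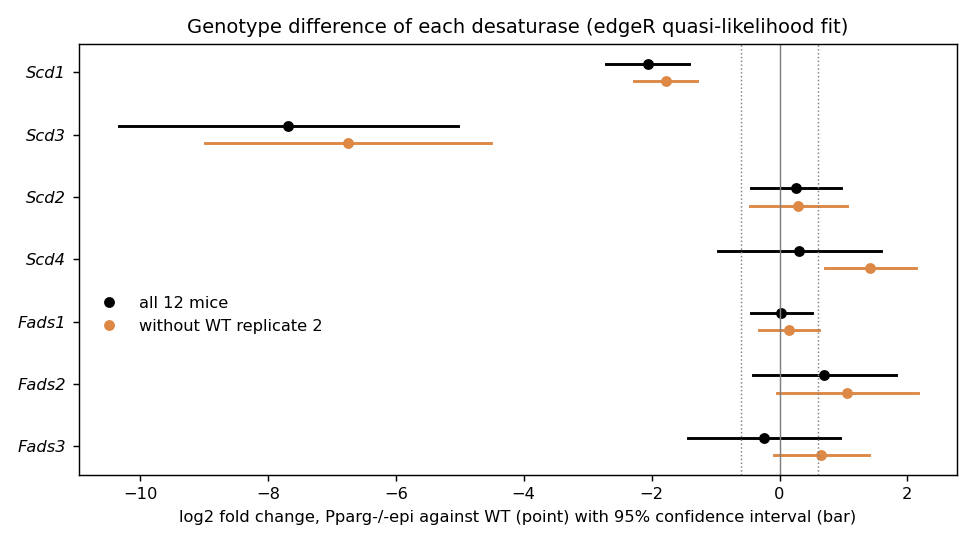
Log2 fold change of the 6 desaturases and Scd4 with its 95% confidence interval, in the fit of all 12 mice (black) and without WT replicate 2 (orange), with dotted lines at the threshold of 0.6. The intervals of Scd1 and Scd3 lie below the threshold in both fits, Fads3 changes sign, and Scd4 moves from 0.31 to 1.42.

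Per length of gene, the order of the genes changed between the genotypes. RPKM was CPM divided by the gene length in kilobases given with the counts, which for Fads2 covers only part of the transcript. WT medians of RPKM were 170 for Scd1, 24.3 for Scd2, 10.2 for Scd3, 4.53 for Fads1, 3.89 for Fads3 and 1.503 for Fads2. Only the step from Scd1 (lowest WT mouse 104 RPKM) to Scd2 (highest 37.1 RPKM) was free of overlap among neighbours in that order. In Pparg-/-epi mice the medians were 46.03 for Scd1, 28.9 for Scd2, 5.46 for Fads3, 4.72 for Fads1, 2.42 for Fads2 and 0.148 for Scd3. There Scd1 (38.4 to 60.9 RPKM) overlapped Scd2 (12.4 to 42.99 RPKM), whereas Scd2 lay above Fads3 (2.44 to 10.3 RPKM) and Fads2 (1.42 to 4.99 RPKM) above Scd3 (0 to 0.332 RPKM) in all mice.

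The make-up of the Scd mRNA differed as well. Summed over the 4 Scd genes, WT mice had 129.9 to 507 RPKM (median 195) and Pparg-/-epi mice 51.4 to 93.4 RPKM (median 82.0). Scd1 made up 72.8% to 88.7% of this sum in WT mice, against 52.9% to 74.7% in the Pparg-/-epi group, and Scd2 made up 5.17% to 20.4% against 24.0% to 46.1%. Scd3 gave 1.46% to 20.3% in WT mice, against 0% to 0.364%. The ratio of Scd1 to Scd2 in RPKM was 3.82 to 17.2 in WT mice, against 1.15 to 3.11 where Pparg was deleted, so that Scd1 was above Scd2 in each of the 12 mice, and the ratios of the groups did not overlap. These shares restate the fall of Scd1 and Scd3 and were not tested. The Scd3 level was 1.79% to 27.4% of the Scd1 level in WT mice, against 0% to 0.689%, so it was not a fixed share of Scd1.

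**Figure D3:**
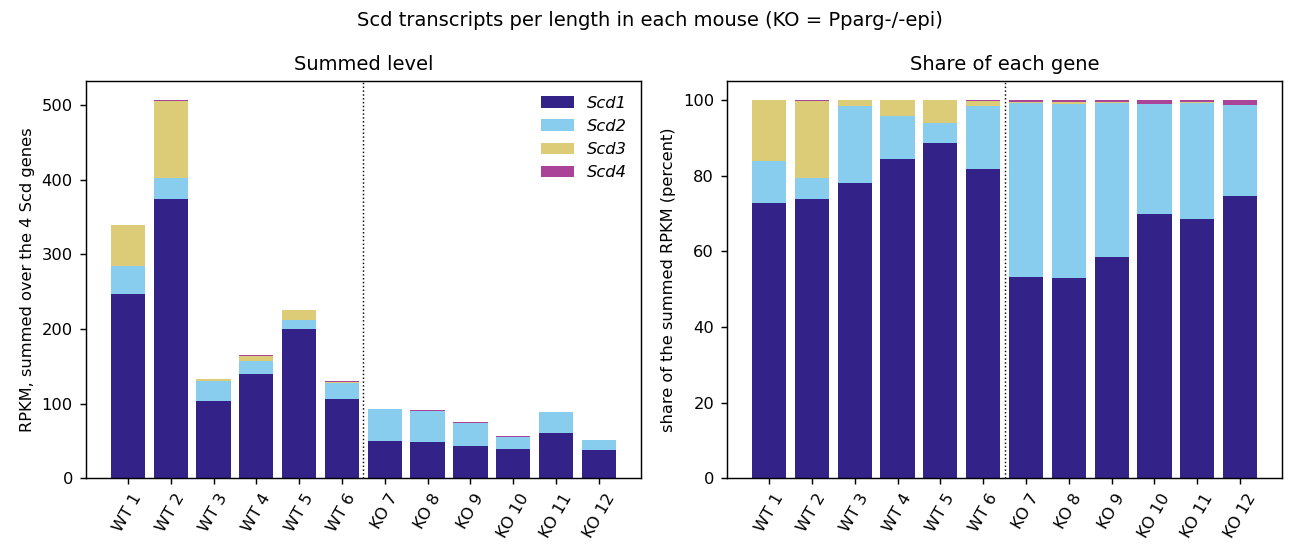
RPKM of the 4 Scd genes stacked for each mouse (left) and as a percentage of their sum (right), with WT replicates 1 to 6 and Pparg-/-epi replicates 7 to 12 (marked KO). The sum is lower in each Pparg-/-epi mouse than in any WT mouse, and Scd2 takes 24.0% to 46.1% of it there.

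The Fads sum was not lower, at 8.89 to 33.5 RPKM in WT and 7.74 to 23.0 RPKM in Pparg-/-epi mice. The share of Fads2 in it varied widely between WT mice, at 3.18% to 26.3%, and little between Pparg-/-epi mice, at 18.3% to 21.7%. Fads1 (33.4% to 50.05%) and Fads3 (31.6% to 44.9%) varied more than Fads2 between Pparg-/-epi mice. The lowest WT share of Fads2 rests on 4 counts in replicate 3. The highest WT share of Fads3, 67.7%, came from replicate 2, which stood apart in Fads3. These shares were not tested.

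Among Pparg-/-epi mice, Scd2 and the Fads genes shared an order. Replicates 7, 8 and 9, all female, were the highest 3 in Scd2, Fads1, Fads2 and Fads3, and replicates 10 and 12, the males, the lowest pair in each. Summed endothelial markers were 120.3 to 159.7 CPM in replicates 7, 8 and 9 and 22.7 to 50.8 CPM in the other Pparg-/-epi mice. Fibroblast sums overlapped, at 7902 to 11225 CPM against 5345 to 9448 CPM. RIN was 7.7 to 8.6 against 5.7 to 7.7. Replicates 7, 8 and 9 shared no breeding number with the other Pparg-/-epi mice. The part of breeding, sex, dermal content and RNA quality in this order was not tested.

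Across all 12 mice, log2 CPM of Fads1 rose with RIN (Pearson's r = 0.71, permutation p = 0.0121, adjusted p = 0.0598, Spearman's rho = 0.58, permutation p = 0.0535, adjusted p = 0.160), with r of 0.83 within WT, 0.67 within Pparg-/-epi mice and 0.69 without the 2 mice farthest from the median RIN. For Fads2 the values were r = 0.67 (permutation p = 0.0149, adjusted p = 0.0598) and rho = 0.75 (permutation p = 0.00676, adjusted p = 0.0811), with r of 0.67 within WT, 0.63 within Pparg-/-epi mice and 0.76 without those 2 mice. With total counts, Fads2 had r = 0.69 (permutation p = 0.0127, adjusted p = 0.0598) and rho = 0.70 (permutation p = 0.0139, adjusted p = 0.0837). Fads3 had r = 0.60 with RIN (permutation p = 0.0349, adjusted p = 0.105). RIN and total counts were related to each other (r = 0.70), so that RNA quality and depth can hardly be told apart here. None of the 12 relations computed, of 6 genes with RIN and with total counts, passed the adjusted threshold of 0.05. For Scd1 and Scd3 r with RIN was -0.10 and -0.03 over all mice, and 0.78 and 0.81 within WT.

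The response of Scd2 by sex was read from separate fits and an interaction term. Female WT mice had 100.4 to 152 CPM and female Pparg-/-epi mice 149 to 234 CPM, while male WT mice had 63.6 to 202 CPM and the 2 male Pparg-/-epi mice 67.3 and 89.2 CPM. The log2 fold change was 0.66 in females (adjusted p = 0.115) and -0.83 in males (adjusted p = 0.474) in edgeR's quasi-likelihood test. The interaction of genotype and sex was -1.48 on the log2 scale (SE 0.52, adjusted p = 0.895, edgeR's quasi-likelihood test). No gene of 14533 passed the interaction test after adjustment, and 741 (5.10%) had an unadjusted p under 0.05. Scd1 and Scd3 were lower in females alone (log2 fold changes of -2.02 and -7.51, adjusted p = 0.0351 and 0.0314), in a fit that altered 4.48% of all genes. In males alone their log2 fold changes were -2.26 and -10.61 (adjusted p = 0.0982 and 0.154), in a fit that altered 0.124% of all genes. Their interactions of genotype and sex had adjusted p of 0.974 and 0.941 in edgeR's quasi-likelihood test.

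The genes most like each member were ranked by correlation. By the correlation of log2 CPM over the 12 mice, members left out, Scd1 was most like Cyp3a57 (r = 0.98), a cytochrome P450 of a family with close copies, Fa2h (0.98), which hydroxylates fatty acids, and Far2 (0.97), which reduces acyl-CoA to fatty alcohols for waxes. Scd3 was most like Rassf3 (0.97), Cyp3a57 (0.96) and Fa2h (0.96). As both groups differ in these genes, the correlation of deviations from group means was taken too, and it put Mgrn1 (0.95), Far2 (0.95) and Cyp3a57 (0.95) next to Scd1, and Ank2, Mmp11 and Cd93 (0.98 each) next to Scd3. The likeness of Scd1 and Scd3 to each other was 0.93 by deviations and 0.98 among the 6 WT mice. Values of all these pairs share libraries and depth and are descriptions.

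**Figure D4:**
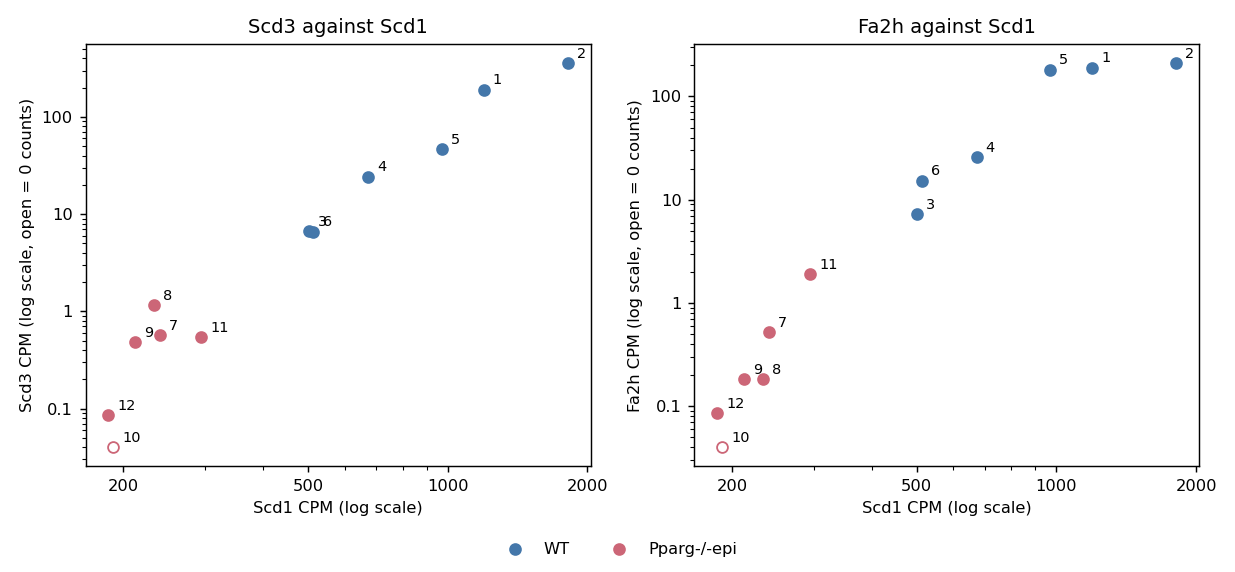
CPM of Scd3 (left) and Fa2h (right) against CPM of Scd1 on log axes, 1 point for each mouse labelled with its replicate number, open where counts were 0. WT replicates 2, 1, 5 and 4 are the highest 4 in that order for Scd1 and Scd3, and Pparg-/-epi replicates 10 and 12 the lowest pair in both plots.

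The genes most like the other 4 members were ranked the same way. By deviations, Scd2 was nearest to Depdc1b, Tert and Wbscr27 (0.91 to 0.95), Fads1 to Zfp423, Emilin1 and Rnf144a (0.96 to 0.98), Fads2 to Mki67, Etl4 and Drp2 (0.94 to 0.96) and Fads3 to Pald1, Glb1l2 and Ltbp4 (0.95 to 0.97). Over the 12 mice without centring, they were Tert, Phldb2 and Thbs2 (0.88 to 0.93) for Scd2, Zfp423, Bace1 and Sox10 (0.95 to 0.97) for Fads1, Etl4, Ptpn9 and Tcf3 (0.95 to 0.96) for Fads2 and Glb1l2, Nov and Sytl2 (0.94 each) for Fads3. Of these, Mki67 is the proliferation marker Ki-67.

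The neighbours of the clusters within 100 kb were mostly not altered. Next to the Scd genes, Chuk, Cwf19l1 and Bloc1s2 had log2 fold changes of -0.22 to 0.05, and 0 of 3 were altered. Next to the Fads genes 1 of 5 was altered, Dagla, which makes an endocannabinoid from diacylglycerol (log2 fold change -1.01, SE 0.27, adjusted p = 0.0239), and Fth1, Rab3il1, Fen1 and Tmem258 had values of -0.25 to 0.31.

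Genes that work with the desaturases were taken from lists, and their counts are to be read against 10.3% of all genes altered, 5.08% lower and 5.19% higher. Of 6 electron donors in the table, cytochrome b5 and its reductases among them, 0 were altered, with a median log2 fold change of -0.03. Of 9 other enzymes of the desaturase and hydroxylase type, 2 were lower and 1 higher (median -0.12). Fa2h fell from a WT range of 7.25 to 209.9 CPM to 0 to 1.90 CPM in Pparg-/-epi mice (log2 fold change -7.85, SE 1.12, adjusted p = 0.000915). Msmo1, a methyl sterol oxidase of cholesterol synthesis, fell too (-0.85, adjusted p = 0.00534). Degs2, which makes phytoceramide and desaturates sphingolipids, rose from 0.134 to 5.68 CPM in WT to 6.61 to 23.4 CPM (2.88, SE 0.78, adjusted p = 0.0257). Degs2 stood at 3.51 on the log2 scale without WT replicate 2, and without WT replicate 3 or Pparg-/-epi replicates 7, 9 or 11 it was 2.70 to 2.86 with an adjusted p of 0.0504 to 0.0591. Fa2h stood at -8.86 without Pparg-/-epi replicate 11.

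Fatty acid synthesis had 3 lower and 1 higher gene of 11 (median -0.25). Acacb (log2 fold change -1.99, adjusted p = 0.026), Me1 (-0.90, adjusted p = 0.0102) and Fasn, the fatty acid synthase (-0.62, adjusted p = 0.0176), were lower. Olah, a thioesterase that ends fatty acid synthesis early, was at 0 to 0.767 CPM in WT and 7.09 to 12.5 CPM in Pparg-/-epi mice (5.01, SE 0.57, adjusted p = 0.000264). Of 12 elongation genes 3 were lower and 1 higher (median -0.43). Elovl3 had the largest fall of the list but did not pass (log2 fold change -2.91, SE 0.98, adjusted p = 0.0637). In edgeR's likelihood ratio test its adjusted p was 0.016. Elovl6, which lengthens palmitate to the stearate that Scd1 uses, was at 301 to 880.2 CPM in WT and 112 to 203 CPM in Pparg-/-epi mice (-1.57, SE 0.25, adjusted p = 0.00165). Elovl5, which lengthens the products of Fads2, was at 34.6 to 296 CPM in WT and 29.8 to 37.6 CPM in Pparg-/-epi mice (-1.97, SE 0.49, adjusted p = 0.0169). Hacd2 was lower (-0.61, adjusted p = 0.00907) and Elovl7 higher (0.79, adjusted p = 0.0199). Some of these calls lay at the threshold. Acacb had an adjusted p of 0.0501 to 0.0590 without WT replicate 5 or Pparg-/-epi replicates 9, 11 or 12, and Elovl7 of 0.0507 and 0.0510 without Pparg-/-epi replicates 9 and 7. Fasn had a log2 fold change of -0.57 and -0.53 without WT replicates 1 and 2, and Hacd2 one of -0.60 to -0.56 without WT replicates 3 or 5 or Pparg-/-epi replicates 7, 8 or 9.

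Of 10 acyl-CoA synthetases, which bind fatty acids to coenzyme A, 2 were lower, Slc27a2 (-4.36, adjusted p = 0.000942) and Acsl6 (-1.44, adjusted p = 0.0135), with a median of -0.45 for the list. Slc27a2 stood at -5.15 without Pparg-/-epi replicate 12. Of 20 genes of acyl transfer to glycerolipids and sterols, 1 was lower, Soat1, which esterifies cholesterol with oleate and other fatty acids (-1.85, adjusted p = 0.0163), with a median of -0.34. Of 9 peroxisomal genes for the shortening of very long polyunsaturated acids, 1 was lower, Acaa1b (-4.57, adjusted p = 0.018), with a median of -0.25. Acaa1b depended in size on WT replicate 2 (17.9 CPM against a WT median of 1.19 CPM), with a log2 fold change of -2.68 without it and -5.29 without Pparg-/-epi replicate 11. Among 21 regulators of lipid synthesis, Ppara (-1.31, adjusted p = 0.000167), Mid1ip1 (-0.65, adjusted p = 0.0164) and Srebf1, which drives Scd1 and Fasn in liver (-0.60, adjusted p = 0.00265), were lower and Ppargc1b was higher (0.82, adjusted p = 0.00456), with a median of -0.10. Srebf1 had a log2 fold change of -0.58 to -0.54 without WT replicates 3 or 5 or Pparg-/-epi replicates 8 or 12, and Mid1ip1 of -0.56 and -0.58 without WT replicate 5 and Pparg-/-epi replicate 8, under the threshold of 0.6 in size. Over all lists, markers included, 29 of 171 genes beside the members were altered, against 10.3% of all genes tested. The lists were chosen with earlier results of these data known, so this comparison is a description and no excess was tested.

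**Figure D5:**
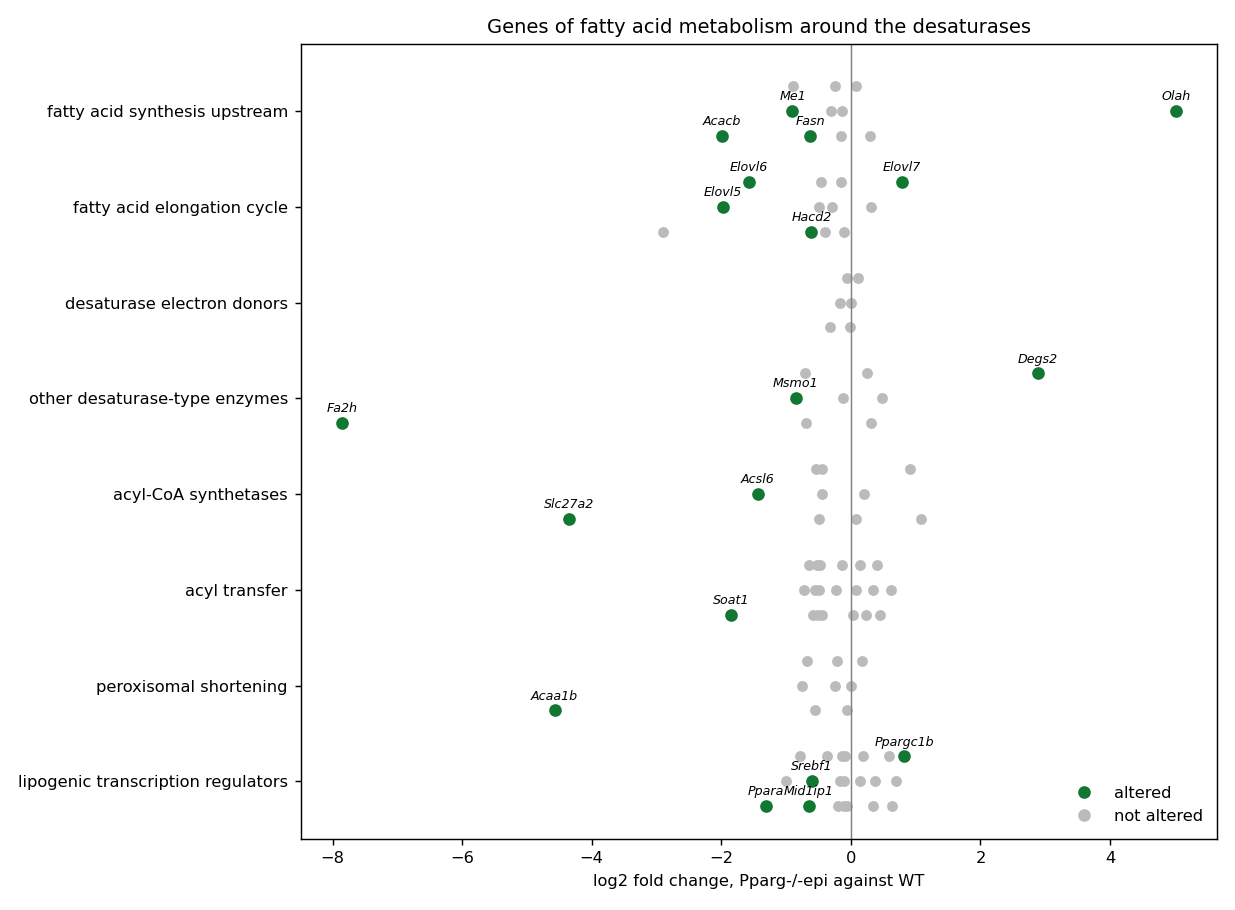
Log2 fold change of each gene of 8 lists around the desaturases, 1 point per gene, with altered genes in green and named. Fa2h at -7.85 and Olah at 5.01 are the extremes, and the 6 electron donors lie near 0.

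Marker lists were read beside Scd1 and Scd3. Of the 12 sebaceous gland markers measured, 5 were lower (Awat1, Awat2, Far2, Fa2h and Soat1), with a median log2 fold change of -1.80, and 2 were higher (Krt79 and Lpo). Awat1, a wax synthase, had 0.852 to 58.6 CPM in WT and 0 to 0.582 CPM in Pparg-/-epi mice, and Far2 2.77 to 225 and 0.572 to 1.72 CPM. The summed level of the list was higher in Pparg-/-epi mice (2275 to 3811 CPM) than in all WT mice (543 to 2559 CPM) but replicate 2, and Krt79, a keratin of the upper follicle and gland duct, made up most of it in Pparg-/-epi mice (45.7 to 1335 CPM in WT and 1849.8 to 3513 CPM in Pparg-/-epi mice). These sizes moved when WT replicate 2 was left out, to -5.36 for Awat1 (-6.38 with it), -1.86 for Awat2 (-4.08 with it), -5.01 for Far2 (-6.07 with it) and 3.56 for Krt79 (2.70 with it), while Awat1 was at -6.98 without Pparg-/-epi replicate 10. Of 11 adipocyte markers, 0 were altered, with a median log2 fold change of -0.48. Their sum was 29.4 to 699 CPM in WT, with WT replicates 5 (699 CPM) and 2 (421 CPM) the highest, and 55.1 to 304 CPM in Pparg-/-epi mice. Their part in the levels of Scd1 was not tested. Of the lists for fibroblasts, skeletal muscle and hair matrix, 0 of 7, 0 of 7 and 0 of 15 genes were altered, against 10.3% of all genes. Their median log2 fold changes were -0.04, -3.81 and 1.13. Spread between mice was wide (SE of 2.11 for Myh4 of the muscle list), so that these counts do not show equal tissue content. Of 7 keratinocyte markers Krt14 (0.98) and Ivl (1.00) were higher, of 5 endothelial markers Emcn (1.79) was higher, and Cd3e (-0.75) of 6 leukocyte and Mbp (-0.63) of 6 nerve markers were lower. The median log2 fold change of the endothelial list was 1.15. Emcn had an adjusted p of 0.0530 to 0.0804 without WT replicates 3, 4 or 5 or Pparg-/-epi replicates 7, 8, 9 or 11, and Cd3e of 0.0520 to 0.0783 without these or Pparg-/-epi replicate 12. Mbp had a log2 fold change of -0.60 without WT replicate 6, just under the threshold in size. The part of sebaceous cell number in the fall of Scd1 and Scd3 was not tested.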

How the data were processed

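Libraries of polyadenylated RNA were sequenced as paired-end reads of 75 bases. Per the labels and the study's methods, the authors aligned reads with STAR 2.5.2b to mm10, removed multi-mapped reads and counted reads per gene with featureCounts (Subread 1.5.1). The strand setting of the counting is not given in the sources used here. The deposited values are counts without normalization, and the gene length in bases that the authors deposited beside them was used for RPKM. Of the rows in the table, 2800 are blank and were dropped, and 0 value columns lacked a sample. All 14533 genes have more than 0.5 CPM in at least 6 mice. Total counts of 10120840 to 18851255 make 1 count worth 0.0530 to 0.0988 CPM before scaling.

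Counts were scaled by TMM and tested with edgeR 4.0.16 (quasi-likelihood, genotype as the only term, Benjamini-Hochberg over all genes) in R 4.3.3. All adjusted p-values are from this test unless another is named. Log2 CPM used a prior count of 2. Alternatives were edgeR's likelihood ratio test, which the study used, DESeq2 1.42.0, other scaling, a count minimum of 10, each mouse left out, each sex alone, sex, age (as the labels give it) or RIN in the model, and WT mice of 1 breeding number left out. The script was tested on simulated data. Relations with RIN and with total counts used 100000 permutations, two-sided. For likeness, genes with a mean of at least 1 CPM were ranked and 3 named per gene and measure. From each list up to 4 altered genes with the largest changes were named, with Elovl3 added. Sequences came from RefSeq (GRCm38.p6) and GENCODE M21, both of the mm10 build, and figures were drawn with matplotlib 3.10.9. The columns of libraries 11 and 12 were assigned through the library numbers in the titles and the study's library sheet. The members and lists were chosen with earlier results of these data known.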

Additional observations from a re-analysis of the deposited data

Results flagged for a closer look

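Fads3 in WT replicate 2, at 74.1 CPM, stood apart from the other 5 WT mice, which had 8.25 to 14.7 CPM. Its gap to the next mouse took 0.903 of the range of the group, above Dixon's critical value at the 95% level for 6 samples. Of 12 groups tested, 6 genes in each genotype, it was the one past that limit, and chance alone flags about 1 in 20 groups.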

How the results depend on the processing

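No paired analysis was run, since only 1 breeding number holds mice of both genotypes. The call of Scd1 and Scd3 as lower held in all alternatives except males alone (3 WT and 2 Pparg-/-epi mice), where the log2 fold changes were -2.26 (adjusted p = 0.0982) and -10.61 (adjusted p = 0.154) and 0 of the members were altered, in a fit that altered 18 genes in all. With at least 10 counts in every mouse, Scd3 and Fads2 were not tested and 1 member was altered. With each mouse left out, Scd1 ranged from -2.19 to -1.78 and Scd3 from -8.18 to -6.75, and 2 members were altered each time. With age in the model Scd1 was at -1.92 and Scd3 at -6.46. Without the 4 WT mice of 1 breeding number they were at -2.72 and -9.04. WT replicates 1 and 2, which remain in that fit, were the youngest WT mice (8 and 9 weeks). They were also the highest WT mice in Scd1 and Scd3. The part of age and breeding in these levels was not tested. Genes that were not altered changed sign: Scd2 to -0.83 in males and -0.17 without the 4 WT mice of 1 breeding number that no Pparg-/-epi mouse has, Fads2 to -0.058 without those mice, and Fads1 to -0.45 in males, -0.045 with sex, -0.16 with RIN in the model and -0.38 without those mice. With each mouse left out, Fads1 ranged from -0.14 to 0.15, Scd2 from 0.09 to 0.42, Fads2 from 0.42 to 1.06 and Fads3 from -0.52 to 0.65, the highest value being that without WT replicate 2. The cause was not tested. Of the 171 genes in the lists, 32 were altered by the likelihood ratio test, which altered 11.8% of all genes. Over all genes the count altered was 1493, and 2249 without WT replicate 2, 651 in females and 389 without the 4 WT mice. Scd3 and Fads2 rest on few counts, 0 to 19 in Pparg-/-epi mice and 4 to 124 in all mice. Only 1 breeding number holds both genotypes, so that breeding and genotype can hardly be told apart.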
